A study of Drosophila melanogaster with 33 samples.

Results

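Isolated narrow Ada2b loci are short stretches of the autosome arms where Ada2b was found in both replicates and where no other such stretch lay nearby. They were chosen by the peak positions of both lists: a locus had to lie on 2L, 2R, 3L or 3R, be narrower than 700 bp after merging, and be separated from the next locus by 20 kb or more on either side. Of 3750 loci found in both lists, 2940 lay on these arms, 2689 of those were narrow, and 569 met the rule. Since the positions, widths and calls of both lists chose the members, the values below describe them, and no difference between members and other loci was tested.

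The series holds 33 libraries for chromatin immunoprecipitation sequencing (ChIP-Seq), some of them total chromatin. They came from Drosophila melanogaster embryos aged 1 to 3 h, picked at stages 4 to 6. Ada2b was precipitated with a rabbit antibody in 2 libraries, both from Ataxin-7 mutant embryos and with the replicate names 1907_1 and 1839_2, called replicate 1 and replicate 2 here. The mutant allele is not given in the sources used here, and no wild type Ada2b list was analysed, so every value below belongs to the mutant background. What the leading numbers of the replicate names mark is not stated, so a batch and a replicate cannot be told apart.

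Ada2b is an adaptor subunit that joins the acetyltransferase Gcn5 in SAGA, a large coactivator complex that acetylates histone H3 at promoters and removes ubiquitin from histone H2B. Ataxin-7 anchors the deubiquitinase module to SAGA. Ada2b is also part of the smaller ADA complex, which shares the acetyltransferase but has no deubiquitinase. The embryos span the syncytial and cellular blastoderm up to the start of gastrulation, the period in which the zygotic genome becomes broadly active. Which genes lie at the loci was not analysed here, since the positions are in dm3 and no annotation of that build was used.

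Replicate 1 held 4654 peaks and replicate 2 held 4484. The depth at a locus is given as the pileup, the whole number of ChIP fragments over the summit, recovered from the deposited values. Over all peaks its median was 92 fragments in replicate 1 and 82 in replicate 2, and the highest values were 400 and 387. Local background never fell below 24.6 fragments in replicate 1, and the floor of replicate 2 was 18.2. Fold enrichment is the pileup over the local background with 1 added to each, so a pileup gives a higher fold where the background is lower, as it mostly was in replicate 2, and levels were ordered within a list. Intervals given for pileups and shares cover counting error only. Pileups were not scaled between the lists, whose lowest backgrounds differed. A match or a difference of pileups between the lists is therefore not a match or a difference of signal.

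The members were single, compact peaks. In 568 of 569 loci each list had exactly 1 peak, and 1 locus held 2 peaks of replicate 2. The width limit leaves little room for several peaks of a list, and the count at other narrow loci is not given here. Merged widths ran from 209 to 699 bp with a median of 346 bp and quartiles of 293 and 417 bp. Narrow loci of the same arms with a closer neighbour had the same median width of 346 bp (n = 2120). The stretch covered by both lists made up a median of 86.6% of the merged width, and it fell under 50% in 17 members. Isolated narrow loci on X had a median width of 333 bp (n = 127).

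The summits placed Ada2b at nearly the same base in both libraries. Summits lay a median of 17 bp apart, 203 members (35.7%) were within 10 bp, and 500 (87.9%) were within 50 bp. In 20 members they were more than 100 bp apart, up to 363 bp. The median was 18 bp at narrow loci with a close neighbour and 11 bp at isolated narrow loci on X. The required overlap and the width limit bound these distances in advance. The distance grew as the signal weakened. When members were ordered by the mean rank of the peak score over both lists and divided into 4 equal parts, the median distance was 9 bp in the strongest part, then 14.5, 17 and 30 bp. The median pileup over the same parts fell from 213 to 124, 90 and 75 fragments in replicate 1. In replicate 2 it fell from 202 to 108, 78 and 65.5 fragments.

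Levels at the members covered a wide range with a long upper tail. In replicate 1 the fold enrichment ran from 1.89 to 14.5, with a median of 3.51 and quartiles of 2.72 and 5.58. In replicate 2 it ran from 1.90 to 18.9, with a median of 4.12 and quartiles of 3.13 and 6.46. The upper 10% of members started at a fold of 8.26 in replicate 1 and 10.6 in replicate 2. The strongest of the 4 parts, 143 members, had median folds of 7.62 and 9.67, and the weakest, 142 members, had 2.46 and 2.72.

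Over the whole range of strength, both lists put the members in nearly the same order. Across 569 loci the peak scores had a Spearman's rho of 0.916. These loci share the 2 libraries and are not independent replicates. Ordering by fold gave 0.913, by pileup 0.917, and by peak width 0.739. At narrow loci with a close neighbour the scores had a rho of 0.884. Within the 4 parts of the members, from strongest to weakest, it was 0.925, 0.517, -0.191 and 0.128. The parts were formed from the mean of the same ranks, which narrows the range within each. Fold was higher in replicate 2 at 469 members (82.4%), and at 80.1% of narrow loci with a close neighbour. The ratio of the folds, replicate 2 over replicate 1, had a median of 1.18 with quartiles of 1.05 and 1.32. It was 1.26 in the strongest part of the members and 1.11 in the weakest. Wider members tended to be stronger, with a rho of merged width and fold of 0.35 in replicate 1 and 0.36 in replicate 2 across the 569 loci. Peak width and fold come from the same fragments.

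**Figure D1:**
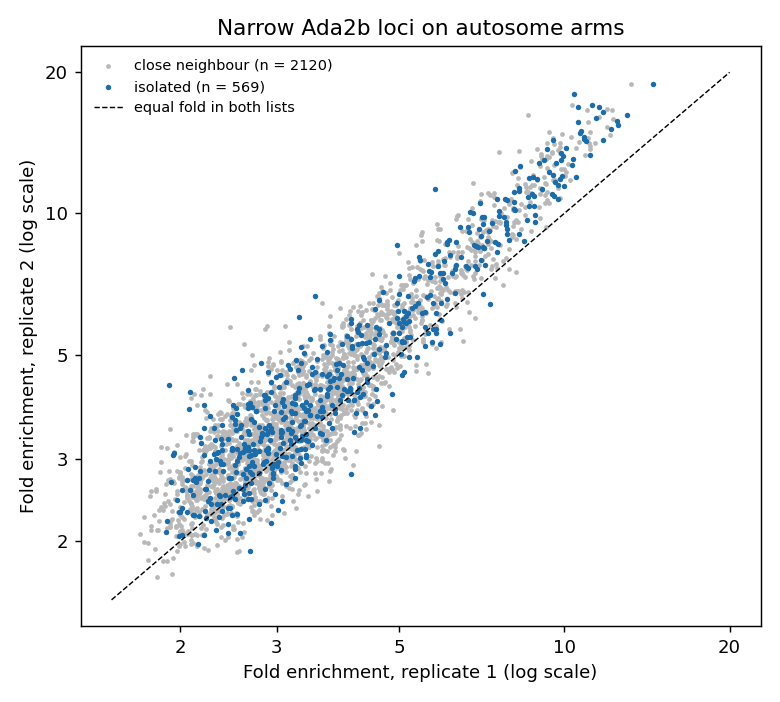
Fold enrichment of narrow autosome-arm loci in replicate 1 (x axis) and replicate 2 (y axis), both on log scales, with 569 isolated loci in blue, 2120 loci with a close neighbour in grey and the dashed line at equal fold. Isolated loci lie along the same band as the others, mostly above the line, and hold many of the points at the upper end.

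The 10 members with the best mean rank lay on 3L (4 loci), 3R (4 loci) and 2L (2 loci). Positions are in dm3 and count from 1. The strongest, chr3L:14104489-14104950, had folds of 14.5 and 18.9 in replicates 1 and 2. Its pileups were 371 fragments (95% Poisson interval 334 to 411) and 362 (326 to 401). It ranked 2 among all peaks of replicate 1 and 1 among those of replicate 2, with its next loci 57.9 kb and 38.3 kb away. Both pileups were close to the highest in either list.

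On 3R, chr3R:3635820-3636337 had folds of 11.6 and 16.8, with pileups of 336 (301 to 374) and 345 (310 to 383) fragments. The locus chr3R:10921169-10921774 had folds of 12.2 and 15.1 and pileups of 330 (295 to 368) and 333 (298 to 371). At chr3R:18182051-18182521 the folds were 10.6 and 16.9 and the pileups 348 (312 to 387) and 349 (313 to 388). Its unscaled pileups were equal within counting error, and its background was 32.0 fragments in replicate 1 and 19.7 in replicate 2. Most of the gap between its folds thus sat in the denominator. The lowest backgrounds of the lists were 24.6 and 18.2, so a local difference cannot be told apart from library scale. The locus also lay 222 kb from the next locus on its left. The 4th on this arm, chr3R:3172171-3172587, had folds of 12.5 and 15.4, with pileups of 320 (286 to 357) and 295 (262 to 331).

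On 3L, chr3L:19133256-19133900 was the member of this group with the most unequal folds, 10.4 and 18.02, at pileups of 335 (300.1 to 373) and 345 (310 to 383). The locus chr3L:17589941-17590458 had folds of 13.0 and 16.3 and pileups of 333 (298 to 371) and 311 (277 to 348). At chr3L:2851734-2852183 the folds were 12.5 and 15.7 and the pileups 319 (285 to 356) and 323 (289 to 360). The intervals of the unscaled pileups overlap between the lists at each of these loci. They also overlap between the loci, so the order among them is not resolved.

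On 2L, chr2L:12520202-12520769 had folds of 11.2 and 17.0, with pileups of 308 (275 to 344) and 326 (292 to 363). At chr2L:1006457-1006940 the folds were 11.7 and 16.5 and the pileups 300 (267 to 336) and 315 (281 to 352), and its summits were 1 bp apart. Summits of the 10 loci lay between 1 and 35 bp apart, and their widths ran from 417 to 645 bp, above the members' median of 346 bp. All 10 were within the best 50 peaks of each list.

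The 5 members with the worst mean rank lay on 2L (2 loci) and 3L (3 loci). Their folds lay between 1.89 and 2.22 in replicate 1. The replicate 2 folds lay between 1.98 and 2.24. The lowest pileups of the group were at chr3L:11086010-11086336, 56 fragments (42.3 to 72.7) and 42 (30.3 to 56.8), over backgrounds of 24.6 and 18.2, the lowest of each list. Both of its pileups were the lowest of any member in their list.

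**Figure D2:**
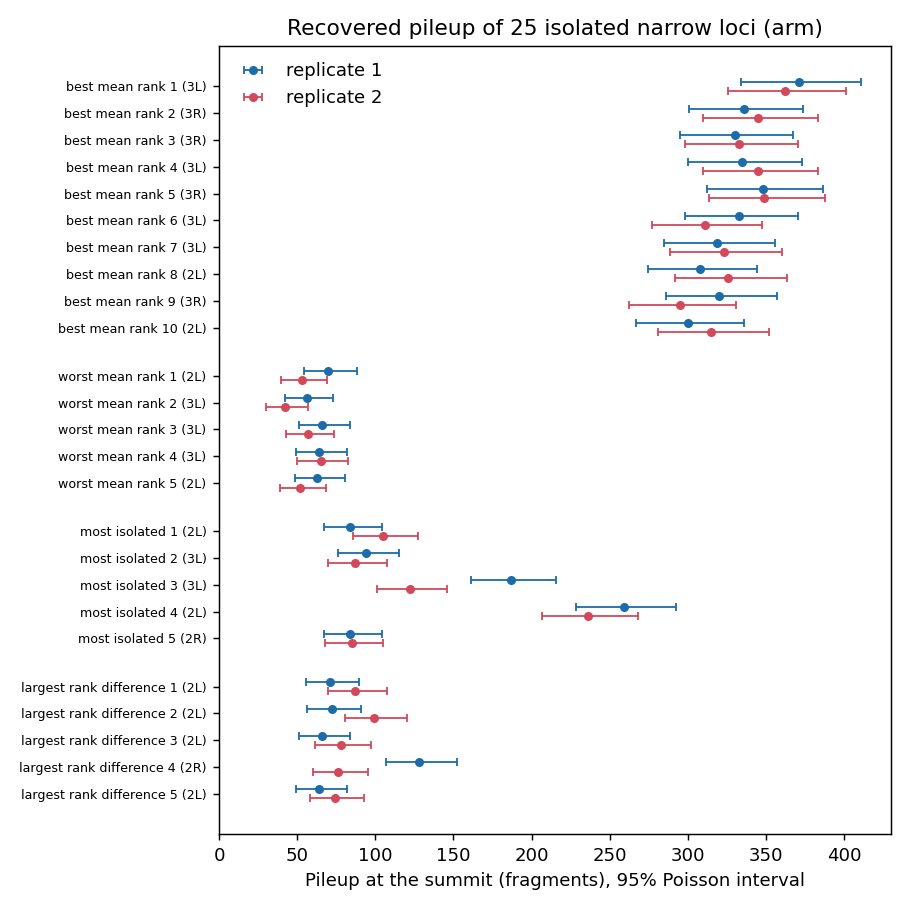
Pileup at the summit in fragments (x axis) for 25 members in 4 groups, with replicate 1 in blue, replicate 2 in red, 95% Poisson intervals as bars and the chromosome arm in brackets. The 10 best-ranked loci sit between 295 and 371 fragments and the 5 worst between 42 and 70, while the 5 most isolated loci spread from 84 to 259.

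The most isolated members were 5 loci with the largest values of their smaller gap. The locus chr2L:16049639-16050045 had its nearest loci 287 kb and 202 kb away. Its folds were 3.32 and 5.19 and its pileups 84 (67.0 to 104) and 105 (85.9 to 127). At chr3L:7707161-7707440, with gaps of 185 and 196 kb, the folds were 3.71 and 4.50. The first of these 2 loci stood at percentile 51.4 of the replicate 1 list and 73.6 of the replicate 2 list. The second stood at 61.2 and 63.4.

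The locus chr3L:24021341-24021698 had gaps of 313 and 177 kb. It had a higher unscaled pileup in the replicate 1 list, 187 (161 to 216) against 122 (101 to 146). Its folds were 7.34 and 6.41, the reverse of the usual order. Its summits were at the same base. The locus chr2L:17963076-17963458, with gaps of 178 and 174 kb, was among the strong members, with folds of 8.13 and 12.3 and pileups of 259 (228 to 293) and 236 (207 to 268). The last, chr2R:14858528-14858837, had gaps of 163 and 170.2 kb and folds of 2.79 and 3.27. Strength thus varied widely among the most isolated loci, and rho of the smaller gap and fold across members was 0.061 in replicate 1 and 0.084 in replicate 2.

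Large rank differences between the lists were few among the members. The percentile of a member differed by a median of 5.50 points between the lists and by more than 25 points in 37 members. The largest difference, 58.4 points, was at chr2L:18294456-18294758, where the folds were 1.91 and 4.31. Its unscaled pileups were 71 (55.5 to 89.6) and 87 (69.7 to 107) fragments, with overlapping intervals, over backgrounds of 36.7 and 19.4. At chr2L:14262947-14263259 the difference was 55.2 points, with folds of 2.09 and 4.16. In 4 of the 5 most different members replicate 2 ranked the locus higher. The exception was chr2R:11756516-11756880, with folds of 4.10 and 2.79. Its pileups were 128 (107 to 152) and 76 (59.9 to 95.1). Those intervals do not overlap, but the pileups were not scaled between the lists.

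Isolated loci held a larger share of strong peaks than narrow loci with a close neighbour. A fold of 5 or more in both lists was reached by 170 of 569 members, 29.9% (95% Wilson interval 26.3% to 33.8%), and by 20.2% of all 2689 narrow loci. Among the 2120 narrow loci with a close neighbour it was reached by 373, 17.6% (16.0% to 19.3%). At a fold of 10 or more in both lists stood 23 members, 4.04% (2.71% to 5.99%), against 1.75% of all narrow loci and 24 loci with a close neighbour, 1.13% (0.76% to 1.68%). The counts of very strong loci in these sets were thus nearly equal, although the second set was larger. These folds come from the same peaks that the rule used, and peaks of a library are not independent, so the shares were not tested.

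The medians differed less than the tails. The median fold of members was 1.07 times that of narrow loci with a close neighbour in replicate 1 (3.51 against 3.28) and 1.10 times in replicate 2 (4.12 against 3.75). The 75th percentiles were 5.58 against 4.44 in replicate 1 and 6.46 against 5.17 in replicate 2. The lowest folds were similar, 1.89 against 1.69 and 1.90 against 1.68. Over bins of the smaller gap, the median fold of narrow loci in replicate 1 was 3.11 under 1 kb, 3.30 from 1 to 5 kb, 3.42 from 5 to 20 kb, 3.43 from 20 to 50 kb and 3.69 at 50 kb or more. In replicate 2 it was 3.64, 3.77, 3.78, 4.01 and 4.42. The smallest bin, at 50 kb or more, held 154 loci. The 90th percentile did not follow the same order: it was 8.28 and 10.7 from 20 to 50 kb and 7.86 and 9.50 at 50 kb or more, against 5.64 and 6.70 under 1 kb. The members did not have the highest medians. Isolated narrow loci on X (n = 127) had 4.06 and 4.61, and arm loci of 700 bp or wider (n = 251) had 3.62 and 4.46. On X the 90th percentile of narrow loci was 8.12 and 10.3 from 5 to 20 kb. It was lower in the isolated X bins, 6.66 and 8.89 from 20 to 50 kb and 7.16 and 9.45 at 50 kb or more. Under 1 kb on X it was 5.84 and 6.85.

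**Figure D3:**
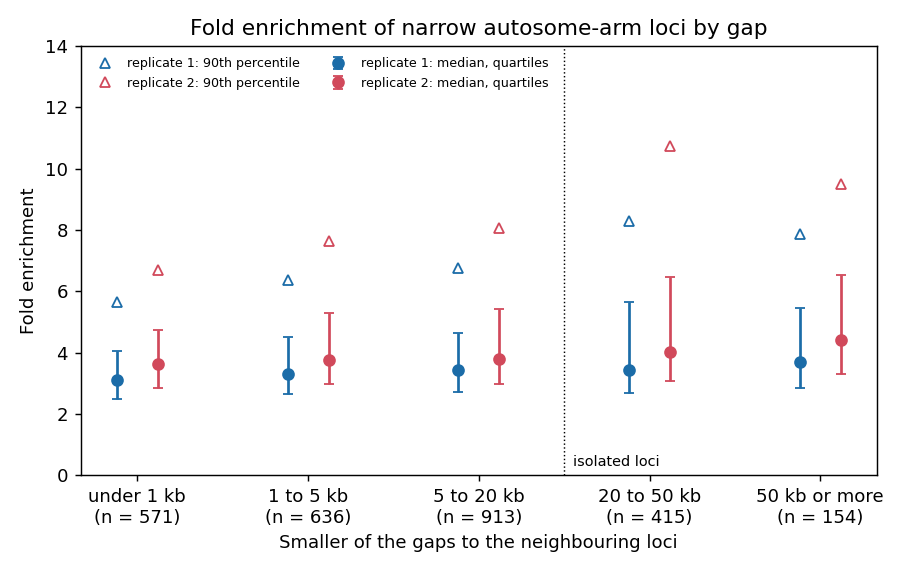
Fold enrichment (y axis) of narrow autosome-arm loci by the smaller gap to a neighbouring locus (x axis), with replicate 1 in blue and replicate 2 in red; filled points are medians with quartile bars, open triangles are 90th percentiles, and bins right of the dotted line hold the isolated loci. Medians rise from 3.11 to 3.69 (replicate 1) and from 3.64 to 4.42 (replicate 2) across the bins, and the triangles are higher in the isolated bins.

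The local background was lower at the members than at narrow loci of the arms with a close neighbour. It stood at the lowest value of the list in 26.2% of members and 11.9% of narrow loci with a close neighbour in replicate 1, and in 30.4% and 19.5% in replicate 2. In both lists at once this held for 122 members, 21.4% (18.3% to 25.0%), against 12.6% of all narrow loci. A low background was not particular to the members. On X it stood at the lowest value in 65.4% of isolated narrow loci in replicate 1 and 53.5% in replicate 2. At narrow X loci with a gap under 1 kb the shares were 52.5% and 45.8%. The pileup is not divided by the background, but it still counts background fragments. It had a median of 104 fragments at members and 99 at narrow autosome-arm loci with a close neighbour in replicate 1, and 93 and 86 in replicate 2. With the local background subtracted, the medians were 75.4 and 68.8 in replicate 1, and 69.8 and 62.8 in replicate 2. A pileup of 200 or more in both lists was found at 68 members, 11.95% (9.54% to 14.9%), against 7.14% of all narrow loci and 5.85% (4.93% to 6.93%) of those with a close neighbour. Among loci above the lowest background in both lists, a fold of 5 or more in both was reached by 74 of 369 members, 20.1% (16.3% to 24.4%), and by 231 of 1673 others, 13.8% (12.2% to 15.5%). There the medians were nearly equal, 1.02 times as high in replicate 1 and 1.05 times in replicate 2.

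The share of isolated loci was highest among the strongest peaks. When the 2689 narrow loci were ordered by mean rank and divided into 10 parts, 93 of the 269 strongest were isolated, 34.6% (29.1% to 40.4%). In the next part it was 24.5% (19.8% to 30.0%), and in the other 8 parts it lay between 16.0% and 22.7%, around the 21.2% of all narrow loci. Seen from the members, 93 of 569, 16.3% (13.5% to 19.6%), were in the strongest 10.0% of narrow loci. Of the 50 strongest narrow loci, 21 were isolated, 42.0% (29.4% to 55.8%).

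**Figure D4:**
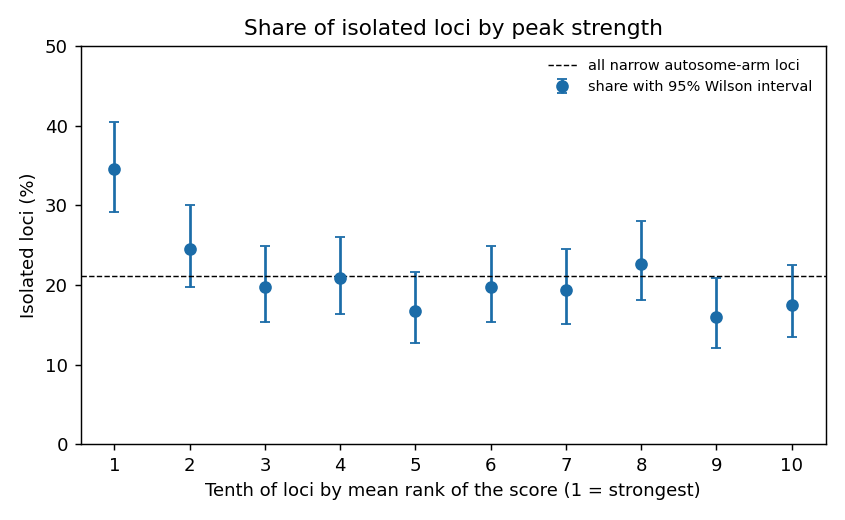
Share of narrow autosome-arm loci that were isolated, in percent (y axis), for 10 parts ordered by the mean rank of the score (x axis, 1 is the strongest), with 95% Wilson intervals and a dashed line at 21.2%. The strongest part stands at 34.6% and the other parts lie between 16.0% and 24.5%.

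Each arm showed the higher share in the strongest part, by different amounts. On 2L, 26 of 60 strong loci were isolated, 43.3% (31.6% to 55.9%), against 19.5% of the remaining narrow loci of that arm. On 2R the shares were 40.4% (28.2% to 53.9%) and 17.9%. On 3L they were 32.3% (22.0% to 44.6%) and 23.9%, and on 3R 27.4% (19.4% to 37.1%) and 17.9%. The intervals on 3L and 3R are wide and reach close to or below the share of the remaining loci. On X, 14 of the 56 strongest narrow loci were isolated, 25.0% (15.5% to 37.7%), against 22.6% of the rest; whether X differs from the autosomes in this respect was not tested.

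The members were spread over all 4 arms. There were 135 on 2L, 130 on 2R, 154 on 3L and 150 on 3R, or 5.88, 6.15, 6.28 and 5.38 per Mb of the span covered by peaks. Narrow loci of all kinds were denser on 2R (31.3 per Mb) than on 3L (25.4 per Mb), and the share that was isolated was 19.7% (16.8% to 22.9%) on 2R and 24.8% (21.5% to 28.3%) on 3L. On 2L it was 21.8% and on 3R 19.1%. The median fold of members in replicate 1 was 3.47 on 2L, 3.83 on 2R, 3.43 on 3L and 3.51 on 3R. In replicate 2 it was 3.98, 4.44, 4.06 and 4.10, so 2R had the highest median in both lists.

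With the arms divided into 5 equal parts from the telomere, 23.4% (19.9% to 27.3%), 22.1% (18.8% to 25.8%), 21.6% (18.3% to 25.3%) and 22.0% (18.7% to 25.8%) of narrow loci were isolated in the first 4 parts. In the part nearest the centromere it was 17.2% (14.4% to 20.5%), 102 of 592 loci. The intervals of all 5 parts overlap, and no difference along the arms was tested. Members there had median folds of 3.93 and 4.48, higher than in the other parts, where the replicate 1 medians were 3.39 to 3.51 and those of replicate 2 were 3.88 to 4.22. Peaks on the separate heterochromatic sequences did not enter the gaps.

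The spacing of the members follows from the rule and is given as a description. Since the locus beside a member already has 1 wide gap, neighbouring members are favoured by the choice itself: in 124 members both neighbouring loci were members too, in 264 one was, and in 181 neither was. The smaller gap had a median of 33.3 kb with quartiles of 25.0 and 52.5 kb, and 27 members had 100 kb or more on both sides. At 4 members, at the end of an arm, there was no further locus on one side. The members nearest the gap limit had gaps of 20010, 20027 and 20027 bp, and the narrow loci just short of it had 19915, 19880 and 19830 bp. The widest members were 699, 693 and 686 bp, and the narrowest loci left out for width were 701, 703 and 709 bp.

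The distance of 20 kb is measured to loci found in both lists, and single-list peaks can lie closer. In 195 members, 34.3% (30.5% to 38.3%), a peak called in only 1 list lay within 20 kb, and 374 members, 65.7% (61.7% to 69.5%), had none. Such peaks came from replicate 1 at 135 members and from replicate 2 at 90, with both at 30. They were weak: the 162 of replicate 1 had a median fold of 2.36 and a highest fold of 3.75, and the 101 of replicate 2 had 2.54 and 4.01. Members without them had median folds of 3.69 and 4.22, and members with them 3.33 and 3.85. For those 195 members, isolation refers to reproduced loci and not to every called peak. The share of other narrow loci with a single-list peak within 20 kb is not given here. Whether 34.3% is particular to the members was not tested. When isolation was measured to every peak of either list, 61 of the 269 strongest narrow loci were isolated, 22.7% (18.1% to 28.0%), against 12.9% (11.7% to 14.3%) of the rest.

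Isolation could also be set from one list and the presence of the peak read from the other, which the rule then did not use. In replicate 1 alone, 528 narrow peaks of the arms had no other peak of that list within 20 kb, and 438 of them, 83.0% (79.5% to 85.9%), overlapped a peak of replicate 2. Among 2944 narrow peaks with a closer neighbour, 80.6% (79.1% to 82.0%) did. In replicate 2 alone, 480 of 556 isolated peaks, 86.3% (83.2% to 88.9%), overlapped a peak of replicate 1, as did 85.0% (83.7% to 86.3%) of the 2759 others. The intervals overlap in both directions. These shares mix peaks of unequal strength. The highest 25% of the list by score held 172 of the 528 isolated peaks and 647 of the 2944 others in replicate 1. In replicate 2 it held 169 of 556 and 618 of 2759. In the lowest 25% of a list by score, 58.2% (48.8% to 67.0%) of isolated peaks of replicate 1 and 59.6% (50.5% to 68.2%) of those of replicate 2 were found again, against 53.6% (50.2% to 57.0%) and 58.7% (55.2% to 62.2%) of peaks with a closer neighbour. In the next 25% the shares of isolated and other peaks were 74.2% (66.0% to 81.0%) against 78.2% (75.1% to 80.9%) from replicate 1 and 80.0% (72.6% to 85.8%) against 87.9% (85.2% to 90.1%) from replicate 2, with overlapping intervals. In the third 25% the shares from replicate 1 were 90.7% (84.1% to 94.7%) of isolated and 95.5% (93.7% to 96.8%) of other peaks. From replicate 2 they were 98.5% (94.7% to 99.6%) and 98.4% (97.1% to 99.1%). These intervals overlap too. In the highest 25% all 172 and all 169 isolated peaks were found again, as were all 647 and all 618 of the others. The median fold of the isolated peaks in their own list was 3.29 against 2.98 in replicate 1 and 3.79 against 3.44 in replicate 2.

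**Figure D5:**
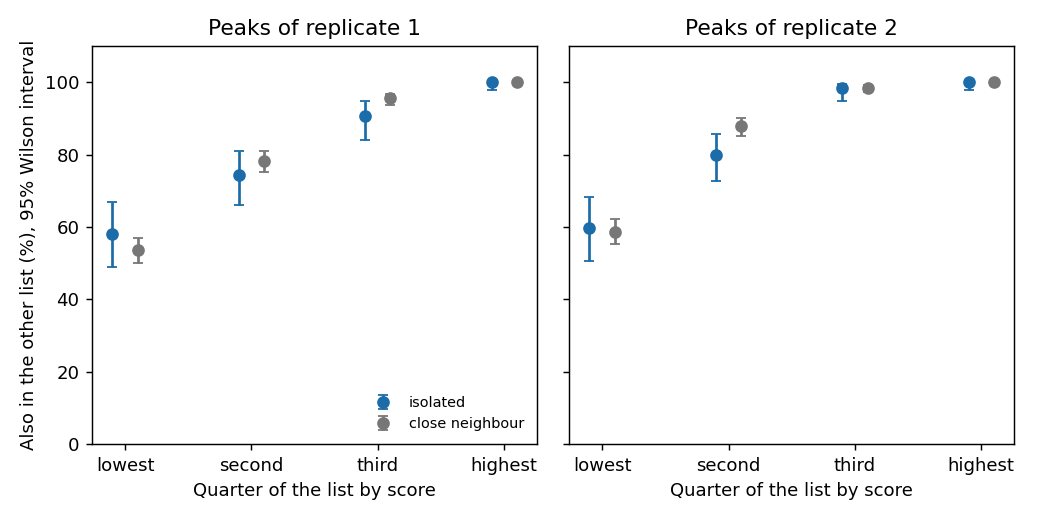
Share of narrow autosome-arm peaks of one list that overlapped a peak of the other list, in percent with 95% Wilson intervals (y axis), in 4 parts of the list ordered by score (x axis), for peaks isolated within their own list (blue) and the others (grey); the left panel starts from replicate 1 and the right from replicate 2. The share rises from about 60% to 100% for isolated peaks. Blue lies below grey in the second part of each panel (74.2% against 78.2%, 80.0% against 87.9%). It also does so in the third part of the left panel (90.7% against 95.5%).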

How the data were processed

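Reads of 2 Ada2b ChIP libraries were aligned by the authors to dm3 with Bowtie, and peaks were called per replicate with MACS2, per the labels; parameters and the control library are not given in the sources used here. In 100% of peaks the deposited score equalled 10 times the −log10 q-value, rounded down. Fold enrichment was deposited as the ratio of pileup to local background at the summit, with 1 added to each, and the deposited −log10 p-value is a Poisson tail.

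Both values fix the pileup as a whole number: the best candidate missed the −log10 p-value by at most 2.51e-04 and the next by at least 0.0428. The recovery, merging and gaps were tested on simulated data. Where a locus held several peaks of a list, the highest score was used. Gaps are edge to edge, and a missing neighbour at an arm end counted as past the limit. Ranks are of the score. Shares carry 95% Wilson intervals.

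No result carries a test, because both lists of the single group entered the rule. The members and the comparisons were chosen with earlier results of these data known. Named loci were the 10 best and 5 worst by mean rank, the 5 most isolated, the 5 with the largest difference in percentile, and 3 on each side of the gap and width limits. Alternatives covered the gap, width, overlap, merging, score, neighbour distance and ranking measure, and each list alone. A planned analysis of start sites, motifs and GC content was not run, since no dm3 genome or annotation was used here. The 2 libraries may be technical or biological repeats. Computations used pandas 2.3.3 and numpy 2.4.6 under Python 3.11.15, intervals scipy 1.17.1, and plots matplotlib 3.10.9.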

Additional observations from a re-analysis of the deposited data

How the results depend on the processing

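Of 66 alternative values for 8 results, 41 stayed within the limits set for a move and none reversed. The number of members, 569, moved to 1036 with a gap of 10 kb, to 331 with 30 kb and to 374 when the gap was taken to any peak of either list, by construction; the list of replicate 1 alone gave 528 and that of replicate 2 alone 556. The share of narrow loci that were isolated, 21.2%, moved in the same 3 alternatives to 38.5%, 12.3% and 13.9%. It was 44.0% in the upper 50% by score, 25.4% with loci within 500 bp merged, and 15.2% to 16.8% in single lists. The upper 50% by score also raised the median folds to 4.86 and 5.73, since weak peaks were removed, and 315 of its 593 loci overlapped a member. Ranking by peak width gave a rho of 0.739; the cause was not tested.

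The median fold of members relative to narrow loci with a close neighbour, 1.07 in replicate 1 and 1.10 in replicate 2, moved beyond the SD of 0.0189 between the lists in several alternatives. It was 1.13 and 1.16 with a gap of 30 kb, 1.12 and 1.12 with the gap to any peak, and 1.11 and 1.12 against neighbours within 2000 bp. In replicate 1 it was 1.09 in the upper 50% by score, 1.05 with loci merged within 500 bp, and 1.11 in that list alone. Chosen after the data were examined, loci above the lowest background gave 1.02 and 1.05, and the pileup gave 1.05 in replicate 1. The ratio stayed above 1 in each of these. An SD from 2 lists is poorly determined. No paired analysis was possible because Ada2b lists of 1 group only were analysed. At the members' median pileups, 104 and 93 fragments, counting error limits how finely loci can be ordered, the strongest included.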
